A study of Homo sapiens with 17 samples.

Results

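The comparison asks which small RNAs were lower after 13 d than after 3 d of Drosha knockdown. It used 10 of the 17 libraries of the series, chosen by treatment day: 2 Dox and 2 water libraries after 3 d, and 3 Dox and 3 water libraries after 13 d. All were K562 cells (human erythroleukemia, genotype Drosha_shRNA_KD) in which doxycycline (Dox) switches on a short hairpin RNA that targets Drosha; the water controls carry the hairpin too. Cells received Dox at 1 µg/mL or water, the medium was renewed throughout, and small RNAs of 20 to 40 nt were taken from a gel. The labels call the replicates independent biological replicates, and whether the line is a single clone is not stated. Each deposited table pairs 1 Dox with 1 water library, matched for day and replicate; there are 5, named here by day and replicate (1 and 3 of 3 d; 1, 2 and 3 of 13 d).

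Drosha, with its partner DGCR8, cuts the hairpin out of a primary microRNA transcript in the nucleus. Dicer then releases the mature strand, which is held by an Argonaute protein and can outlast its precursor by days. Some hairpins are made without Drosha: mirtrons are debranched introns, a few hairpins begin at a capped transcription start, and some microRNA-like RNAs come from small nucleolar RNAs (snoRNAs).

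3 sets of mature sequences show the range of responses. Capitals mark the seed (bases 2 to 8), which sets target choice. The first set holds hairpins with large falls from 3 to 13 d. The second holds hairpins with smaller changes, from -2.77 (miR-92b) to -0.15 (miR-222) on the log2 scale. Of these, miR-16, miR-92b and miR-17 share a seed or a cluster with a member of the first set. The third set holds hairpins that bypass Drosha.
hsa-miR-15b-5p: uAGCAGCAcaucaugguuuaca
hsa-miR-25-3p: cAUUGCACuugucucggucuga
hsa-miR-128-3p: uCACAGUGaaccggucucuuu
hsa-miR-345-5p: gCUGACUCcuaguccagggcuc
hsa-miR-365a-3p: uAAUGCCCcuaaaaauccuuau
hsa-miR-18a-5p: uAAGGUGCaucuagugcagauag
hsa-miR-16-5p: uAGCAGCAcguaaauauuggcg
hsa-miR-92b-3p: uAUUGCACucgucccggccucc
hsa-miR-17-5p: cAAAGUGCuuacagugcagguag
hsa-let-7a-5p: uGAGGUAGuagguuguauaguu
hsa-miR-26b-5p: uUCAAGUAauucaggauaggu
hsa-miR-222-3p: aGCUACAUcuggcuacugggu
hsa-miR-877-5p: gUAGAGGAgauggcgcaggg
hsa-miR-1226-3p: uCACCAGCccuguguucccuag
hsa-miR-484: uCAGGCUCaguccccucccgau
hsa-miR-664b-3p: uUCAUUUGccucccagccuaca
The letters are RefSeq's (GRCh38.p14). On hg19, the build of the files, the most abundant read of miR-15b lay at chr3:160122395-160122416 on the plus strand and that of miR-16-2, from the same transcript, at chr3:160122542-160122564. That of miR-25 lay at chr7:99691194-99691215 (minus), that of miR-345 at chr14:100774213-100774234 (plus) and that of miR-365a at chr16:14403197-14403218 (plus). miR-18a and miR-17 came from chr13:92003010-92003032 and chr13:92002872-92002895 (plus), and miR-222 from chrX:45606439-45606462 (minus). miR-1226 came from chr3:47891098-47891120 (plus) and miR-484 from chr16:15737158-15737179 (plus). miR-15b-5p and miR-16-5p share the seed AGCAGCA, and miR-25-3p and miR-92b-3p share AUUGCAC.

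Library totals were 37273110 to 60664469 reads over the 10 libraries. The water libraries of 3 d stood apart. Of their listed reads, 41.1% and 31.7% were 20 to 24 nt long, against 60.8% to 68.8% in the water libraries of 13 d, 73.9% and 61.7% in the Dox libraries of 3 d and 50.2% to 62.3% in those of 13 d. Listed microRNA hairpins held 67.9% and 46.3% of the 20 to 24 nt reads of the water libraries after 3 d and 77.4% to 83.1% after 13 d. In the Dox libraries they held 86.2% and 84.5% after 3 d, and 85.9%, 64.5% and 52.5% after 13 d. The share was thus higher in Dox in both 3 d tables and lower in Dox in 13 d replicates 2 and 3. Every value below that is set relative to other small RNAs carries this shift of the 3 d water libraries, whose part in the results was not tested.

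**Figure D1:**
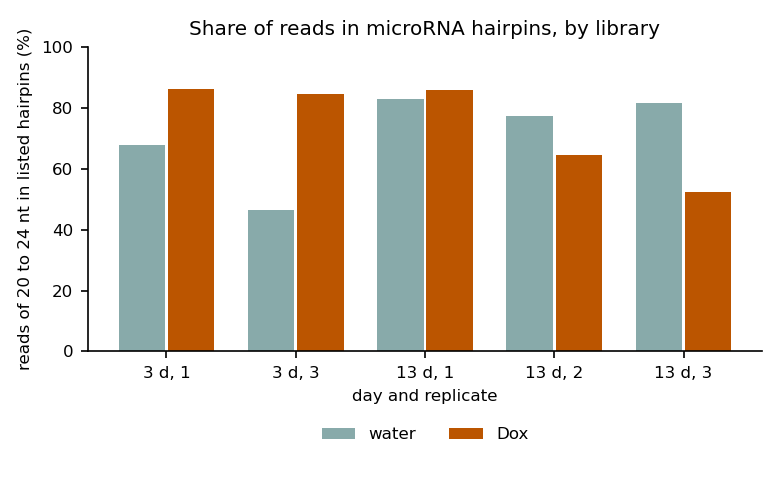
Percent of reads of 20 to 24 nt that lay in the listed microRNA hairpins (y axis) in each water and Dox library (bars), by day and replicate (x axis). The water bars of 3 d, at 67.9% and 46.3%, are the lowest of the water bars.

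Induction of the short hairpin left a mark that the labels can be checked against, though it does not measure the level of Drosha. A short site on chromosome 5, from 31511237 to 31511265 on the plus strand, gave 42242 and 246275 reads with Dox after 3 d against 40 and 77 with water. After 13 d it gave 235278, 351549 and 468103 reads with Dox against 229, 214 and 762 with water. On the minus strand the Dox counts were 172907 to 200723 after 3 d and 105787 to 1017108 after 13 d, against 112 to 2409 with water. All 5 tables had far more of these reads in the library taken as Dox. Of the markers chosen for K562, miR-451a and miR-486 kept no checked name and were left out. The others, miR-17, miR-92a (counted at both of its loci), miR-144 and miR-210, together held 5061 to 51174 reads per 1000000. In the 31 d libraries the arm with more reads averaged 425378 reads for miR-92a-1 and 326362 for miR-17, against 107016 for miR-210 and 10151 for miR-144. The sum thus rests mostly on miR-92a and miR-17. Of 16 hairpins that mark other tissues, 12 to 16 had reads in a library, with 248 to 4242 reads per 1000000 in sum, most of them from the blood-cell hairpins miR-142 and miR-223. Neuron miR-9 had also been chosen as such a marker but was counted with the solitary hairpins, so the sum leaves it out. The arm of miR-9-1 with more reads averaged 3647 reads in the 31 d libraries. Liver miR-122 had 109 to 1130 reads, and miR-302a, of embryonic stem cells, was at 0 in 7 of 10 libraries. Other markers stood out in single water libraries of 13 d. Muscle miR-1-1 had 9698 reads in replicate 2, against 1966 in its Dox partner and 21 to 860 elsewhere. Stromal miR-143 had 6955 reads in the same water library. In water replicate 3 miR-142 had 168655 reads, against 55540 in its Dox partner.

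Reads of 20 to 24 nt were summed for each hairpin or other RNA locus. The log2 Dox over water ratio was centred by TMM, a trimmed and weighted mean, over loci outside the listed hairpins. Those loci, called other small RNAs here, were not annotated. MicroRNA hairpins beyond the 168 looked up can be among them. The difference is the 13 d ratio minus the 3 d ratio. Of 7291 loci tested, 138 were hairpins with a checked name. On the lists of hairpins that Drosha cuts, 118 of 134 kept a name and 117 could be tested. Their median log2 ratio was 1.67 and 2.38 in the 3 d tables and -1.07, -0.45 and -1.09 in the 13 d tables. The tables of the days did not overlap, and the medians differed by -2.90. The exact two-sided permutation test used here doubles the smaller one-sided p. With 3 tables against 2 it cannot give less than 0.2, which is the p here. For all loci tested the medians were 0.02 and -0.14 after 3 d and -0.32, -0.73 and -0.79 after 13 d. For the other small RNAs alone they were 0.02 and -0.14 after 3 d and -0.30, -0.76 and -0.78 after 13 d. The centring thus did not hold their median at 0 after 13 d. In the fit, the median 13 d ratio was -0.94 for the other small RNAs and -0.85 for the 117 hairpins.

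The difference was past the threshold (edgeR quasi-likelihood test, Benjamini-Hochberg adjusted p under 0.05) and lower after 13 d for 75 of the 117 hairpins, which carry 62 distinct leading mature sequences, and higher for 0. At an unadjusted p under 0.05 the counts were 100 and 0, and DESeq2 gave 56 lower and 0 higher. Over all loci 11.9% were lower and 1.08% higher with edgeR, and 11.2% and 11% with DESeq2. After 13 d alone 43 of the 117 were lower with Dox and 5 higher, beside 10.6% and 7.98% of all loci. After 3 d alone 56 were higher and 0 lower (0 also at an unadjusted p under 0.05 and with DESeq2), beside 6.2% and 0.384% of all loci with edgeR and 21.4% lower with DESeq2. For 104 of the 117, all 13 d tables lay below both 3 d tables, as did 30.4% of all loci. A late fall was defined as a lower difference and a lower 13 d ratio, with no fall called after 3 d. It was met by 43 of the 117 hairpins and by 6.9% of all loci; 455 of these loci were unnamed.

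These counts rest on single tables. Without 13 d replicate 3, 0 of the 117 hairpins were called lower after 13 d (edgeR; 46 at an unadjusted p under 0.05) and so 0 met the late fall, while 38 were still lower in the difference and the median of the 117 after 13 d was -0.81. Without 13 d replicate 1 the late falls were 13, and without 13 d replicate 2 they were 12. Without 3 d replicate 1 the difference was lower for 55 hairpins, and without 3 d replicate 3 for 43.

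The size of the fall also depends on what is held at 0. Where each table was centred on the listed hairpins themselves, the median difference of the 117 was -0.07, with 4 hairpins lower and 3 higher, beside 0.988% and 11.6% of all loci. Where it was centred on the hairpins that bypass Drosha, the median was -3.94 and 98 were lower, beside 21.6% lower and 0.425% higher of all loci. On alignments listed in all 5 tables the median was -1.17 and 31 were lower, beside 17.8% lower and 12.7% higher of 2817 loci. The order of the 117 hairpins by their difference was nearly the same on the hairpins' own scale (Spearman's rho = 0.9998, a description across hairpins), and the values below are given on both scales where they turn on the centring.

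**Figure D2:**
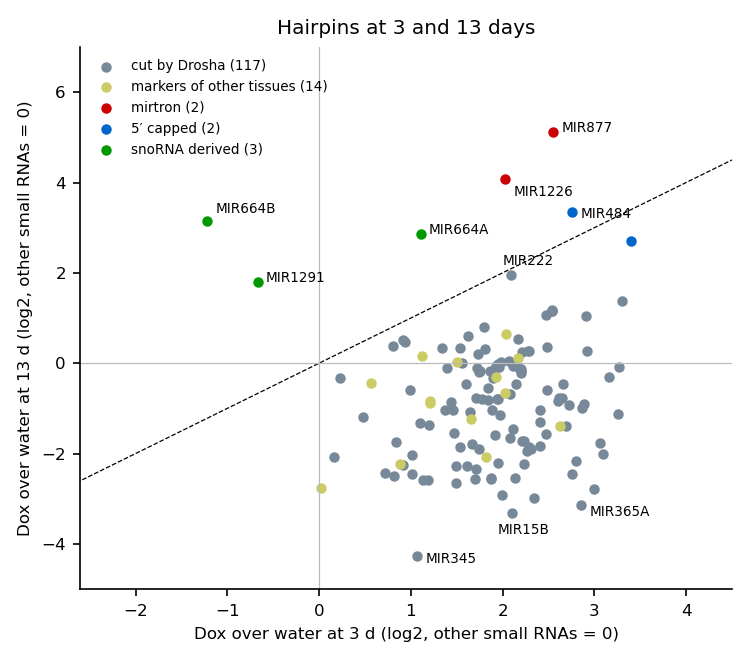
Log2 Dox over water after 3 d (x axis) against 13 d (y axis), both relative to other small RNAs, with 1 point per hairpin, coloured by how it is made; the dashed line marks equal values. Most hairpins cut by Drosha lie below the line (median difference -2.75), while the mirtrons and snoRNA-derived hairpins lie above it.

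The largest falls among the lists belonged to hairpins of several families. miR-365a, which lies in 1 cluster with miR-193b, had log2 ratios of 2.45 and 3.25 after 3 d and -2.80, -2.01 and -4.71 after 13 d. Its difference was -6.0 ± 1.04 (SE, edgeR adjusted p = 0.0065), and its copy miR-365b, which shares the mature sequence, had -5.78. The groups did not overlap, and the lowest 13 d value was in replicate 3. Read numbers were 109 and 79 with water and 589 and 834 with Dox after 3 d, and 657, 933 and 1821 with water and 80, 119 and 32 with Dox after 13 d.

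miR-15b, of the miR-15 and miR-16 family that restrains cyclins and BCL2, had 1.98 and 2.23 after 3 d and -3.27, -3.63 and -3.04 after 13 d. Its difference was -5.42 ± 0.57 (SE, edgeR adjusted p = 0.0012); the days did not overlap, and the 13 d tables lay closer together than those of miR-365a. It was -5.11 and -5.03 without 3 d replicate 1 or 3. Its reads fell with Dox from 28636, 29363 and 19277 to 2526, 1216 and 1089 after 13 d, whereas the 3 d pairs had 3888 and 2601 with water against 15077 and 13516 with Dox. Centred on the hairpins, miR-15b was still lower after 13 d, with a difference of -2.75 ± 0.78 (SE, edgeR adjusted p = 0.0232).

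3 other hairpins kept a lower difference on the hairpins' own scale. miR-128-1 and miR-128-2, which make the same neuron-enriched mature strand from a pair of loci, had -5.10 and -5.20 relative to other small RNAs and -2.43 and -2.52 relative to hairpins. The ratios of miR-128-1 were 3.23 and 2.95 after 3 d and -1.97, -2.09 and -1.97 after 13 d, so that tables of 1 day lay close together. miR-25, the member of its cluster with most reads, had 1.86 and 2.41 after 3 d and -2.48, -2.21 and -2.95 after 13 d. Its difference was -4.68 ± 0.50 (SE, edgeR adjusted p = 0.0012) relative to other small RNAs and -2.0 relative to hairpins (edgeR adjusted p = 0.0288). These 4 hairpins were also the only ones of the 117 with a late fall on that scale, beside 0.562% of all loci.

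miR-345 and miR-29c fell as far, with less certainty on the second scale. miR-345, a solitary hairpin, had 0.07 and 2.07 after 3 d and -4.54, -4.35 and -3.92 after 13 d, a difference of -5.35 ± 0.86 (SE, edgeR adjusted p = 0.0048). Relative to hairpins its difference was -2.67 (edgeR adjusted p = 0.0871), and both 3 d tables were below 0 on that scale, at -1.30 and -0.41. miR-29c, of a family that targets collagen mRNAs, had 3.02 and 1.66 after 3 d and -3.43, -2.73 and -2.80 after 13 d, and its difference was -5.34 (edgeR adjusted p = 0.0040). Its value relative to hairpins, -2.66, missed the threshold (edgeR adjusted p = 0.123).

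Of the cluster from miR-17 to miR-92a, whose miR-17 and miR-20a promote proliferation, 3 of 6 hairpins were lower in the difference. The median of the 6 was -2.46, and their range was -4.25 (miR-18a) to -1.55 (miR-17). miR-20a, the member with most reads in the 31 d libraries, had 1.11 and 3.29 after 3 d and -0.40, 1.42 and -1.35 after 13 d. The days overlapped, and its difference of -2.33 ± 0.91 (SE) did not pass (edgeR adjusted p = 0.126). miR-92a, read from this cluster and from its paralog on chromosome X (miR-106a to miR-363), had 2.61 and 3.11 after 3 d and -0.89, -0.45 and -1.67 after 13 d at the second locus, with a difference of -3.86 (edgeR adjusted p = 0.0031). Of the paralog's hairpins 1 of 5 passed. Of the cluster of miR-106b, miR-93 and miR-25, 2 of the 2 tested passed, with a list median of -4.36, and miR-93 was not tested.

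The let-7 hairpins repress RAS and MYC and mark differentiated cells. Their median difference of -1.74 was the nearest to 0 among the lists of at least 5 hairpins that Drosha cuts. All 12 had 13 d tables below both 3 d tables, 5 were lower in the difference, and 0 met the late fall (edgeR). let-7a (3 copies with near-equal values) had 2.60 and 2.49 after 3 d and 1.16, 1.69 and 0.69 after 13 d at its first locus. Its difference was -1.37 ± 0.54 (SE, edgeR adjusted p = 0.125). After 13 d it was higher with Dox by 1.18 (edgeR adjusted p = 0.0420) relative to other small RNAs and by 1.93 relative to hairpins. In the miR-30 family 4 of 4 hairpins were lower in the difference and 3 met the late fall. miR-30e had 2.18 and 2.44 after 3 d and -1.77, -1.33 and -2.61 after 13 d, with a difference of -4.21 (edgeR adjusted p = 0.0032).

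In the miR-15 and miR-16 list 2 of 8 hairpins passed, miR-15b and miR-195, and the range ran from -5.42 to -0.39. miR-16-2 had 1.39 and 2.74 after 3 d and -0.65, 0.81 and 0.02 after 13 d, and its difference of -2.01 did not pass (edgeR adjusted p = 0.0777). Of the miR-23, miR-27 and miR-24 clusters 5 of 6 were lower; miR-27a had 1.71 and 1.98 after 3 d and -0.63, -0.72 and -0.27 after 13 d, a difference of -2.38 (edgeR adjusted p = 0.0157), which failed without either 3 d pair or without 13 d replicate 1 or 3 (edgeR adjusted p = 0.0585 to 0.0698). miR-221 and miR-222, which target the cell cycle inhibitor CDKN1B, had 0 of 2 lower. miR-222 had 2.01 and 2.17 after 3 d and 1.11, 2.53 and 2.18 after 13 d, so that the days overlapped. Relative to hairpins its difference was 2.52, above 0 (edgeR adjusted p = 0.048).

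The miR-96 and miR-182 pair had 2 of 2 lower, with a median of -2.09, and miR-182 had 2.53 and 2.43 after 3 d and -0.02, 0.58 and 0.50 after 13 d; its call failed without either 3 d pair or 13 d replicate 1 (edgeR adjusted p = 0.0604 to 0.113). The miR-181 family had 3 of 5 lower (median -3.45, miR-181b-1 at -4.90) and the miR-193 and miR-365 hairpins 4 of 4 (median -5.08). Of miR-103a and miR-107, in introns of PANK genes, 0 of 3 passed (median -2.04). The miR-26 family, in introns of CTDSP genes, had 2 of 3 lower. miR-26a-2 had 1.24 and 2.25 after 3 d and -0.42, 0.32 and -0.47 after 13 d, and its call failed without any pair but 13 d replicate 2 (edgeR adjusted p = 0.0605 to 0.277). miR-26b, with 0.52 and 1.34 after 3 d and -0.02, 1.40 and 0.03 after 13 d, overlapped between days, and its difference was -0.47 (edgeR adjusted p = 0.756).

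All 3 hairpins of the miR-148 and miR-152 family were lower, but to different depths. miR-148a, which had most reads of all hairpins in the 31 d libraries, had 3.35 and 2.49 after 3 d and 0.16, -0.31 and 0.98 after 13 d, a difference of -2.65 (edgeR adjusted p = 0.0089) that failed without 3 d replicate 1 or 13 d replicate 1 (edgeR adjusted p = 0.0613 and 0.0530). miR-152, with the same seed, fell to -1.23, -1.77 and -2.32 from 2.75 and 3.38, a difference of -4.83 (edgeR adjusted p = 0.0030). In its cluster with miR-425, miR-191 had 1.49 and 2.87 after 3 d and -0.81, 0.91 and -0.43 after 13 d (difference -2.30, edgeR adjusted p = 0.0516), while its neighbour miR-425 had -4.06. Of the miR-10, miR-99 and miR-125 hairpins, 4 of 7 were lower; miR-10a, of the HOX clusters, had 2.45 and 3.00 after 3 d and -1.07, -0.32 and -1.36 after 13 d, a difference of -3.65 (edgeR adjusted p = 0.0031).

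Solitary hairpins made the longest list, with 33 of 41 lower in the difference and 26 late falls (median -3.47). miR-21, abundant in many tumours, had 2.27 and 2.93 after 3 d and -1.57, -0.72 and -0.21 after 13 d. Its reads after 13 d were 2264962, 2452803 and 4681041 with water and 652262, 768449 and 1886701 with Dox, and its difference was -3.43 ± 0.50 (SE, edgeR adjusted p = 0.0036). Its 13 d ratio alone, -0.83, did not pass (edgeR adjusted p = 0.0872). miR-126, an endothelial and blood stem cell hairpin, had 1.84 and 1.75 after 3 d and 0.74, 0.74 and 0.89 after 13 d, and relative to hairpins its difference was 1.67, above 0 (edgeR adjusted p = 0.0288). Of the erythroid pair, miR-210, induced by low oxygen, had 0.68 and 3.07 after 3 d and -1.93, -2.64 and -3.06 after 13 d (difference -4.42, edgeR adjusted p = 0.0080, and 0.0602 without 13 d replicate 3). miR-144 had a difference of -1.83 (edgeR adjusted p = 0.179).

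**Figure D3:**
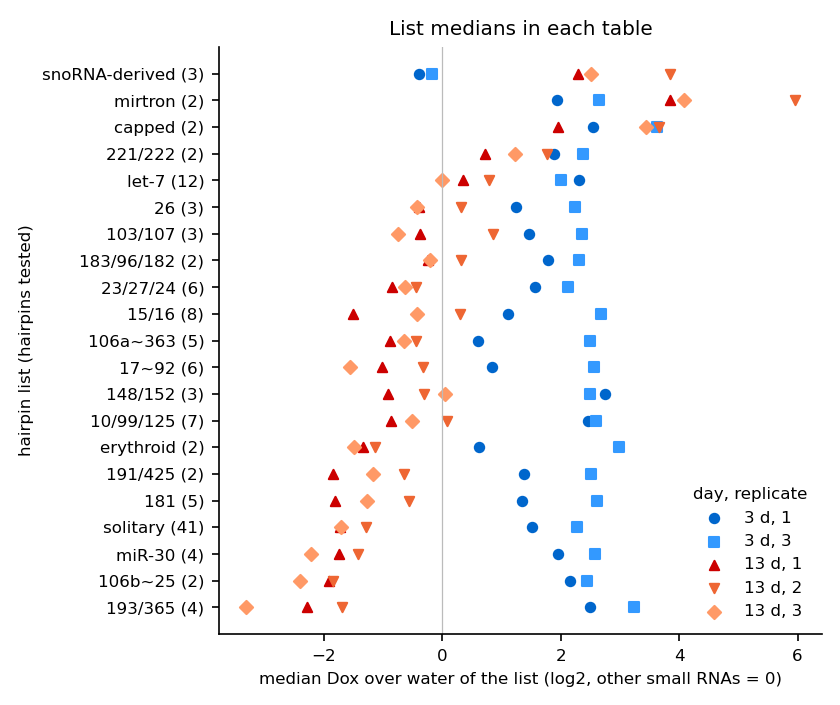
Median log2 Dox over water of each hairpin list, relative to other small RNAs (x axis), in each of the 5 tables (symbols), with the number of hairpins tested in brackets. In the miR-193 and miR-365 list the 13 d medians are -2.28, -1.69 and -3.31 against 2.50 and 3.23 after 3 d, while the mirtron medians are higher after 13 d (3.84, 5.95 and 4.08).

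Of 14 hairpins made without Drosha that were looked up, 7 had a checked name and were tested: 2 were higher in the difference and 0 lower relative to other small RNAs, and 6 were higher and 0 lower relative to hairpins (edgeR; 0 lower also at an unadjusted p under 0.05). DESeq2 gave 5 higher and 0 lower, beside 11% and 11.2% of all loci. Without 13 d replicate 3, 0 of the 7 passed relative to other small RNAs, with 2 higher at an unadjusted p under 0.05. miR-877, a mirtron of ABCF1, had 111 and 60 reads with water after 3 d, and 265, 288 and 430 with water against 4392, 12330 and 5487 with Dox after 13 d. Its log2 ratios were 2.57 and 2.51 after 3 d and 4.28, 6.38 and 4.77 after 13 d, and all 13 d tables lay above both 3 d tables. Its difference was 2.58 ± 0.75 (SE), at the threshold (edgeR adjusted p = 0.0498, and 0.0653 to 0.182 without each 13 d pair), and relative to hairpins it was 5.26 (edgeR adjusted p = 0.0012). miR-1226, a mirtron of DHX30, had 1.28 and 2.78 after 3 d and 3.41, 5.52 and 3.38 after 13 d. Its difference of 2.05 did not pass relative to other small RNAs (edgeR adjusted p = 0.189) and passed at 4.73 relative to hairpins (edgeR adjusted p = 0.0080).

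The 5′ capped miR-484 had 2.15 and 3.36 after 3 d and 2.00, 4.18 and 3.81 after 13 d. The days overlapped, its difference was 0.59 (edgeR adjusted p = 0.755), and relative to hairpins it was 3.26 (edgeR adjusted p = 0.0092). The other capped hairpin, miR-3615, had 2.93 and 3.87 after 3 d and 1.91, 3.14 and 3.09 after 13 d. Its difference was -0.69 (edgeR adjusted p = 0.643), and it was the member of the 7 that did not pass relative to hairpins either (1.98, edgeR adjusted p = 0.124). The snoRNA-derived miR-664b had 44 and 110 reads with water and 8 and 108 with Dox after 3 d, and 18, 21 and 81 with water against 89, 160 and 307 with Dox after 13 d. Its log2 ratios were -2.36 and -0.17 after 3 d and 2.50, 3.86 and 3.02 after 13 d, a difference of 4.36 ± 1.12 (SE, edgeR adjusted p = 0.0327). Without 3 d replicate 1 or any 13 d pair it did not pass (edgeR adjusted p = 0.0591 to 0.142). The related miR-664a had 1.76 (edgeR adjusted p = 0.149) and miR-1291 had 2.46 (edgeR adjusted p = 0.137), both past the threshold relative to hairpins at 4.44 and 5.13.

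On the hairpins' own scale, 17 of the 117 were lower with Dox after 13 d and 9 were higher, beside 5.91% and 12.9% of all loci, and 0 of the 117 passed after 3 d in either direction, beside 32.1% lower and 2.03% higher of all loci (edgeR; 1 lower and 4 higher at an unadjusted p under 0.05). Besides the 4 named above, the lower ones included miR-345 (-3.52), miR-365a (-2.38), miR-29c (-2.24), miR-18a (-1.80), miR-210 (-1.80) and miR-425 (-1.59). The higher ones were the 3 copies of let-7a, miR-222 (2.69), miR-424 (2.12), miR-125a (1.80), miR-126 (1.54), miR-26b (1.22) and miR-182 (1.11).

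The order of the hairpins after 13 d was seen again in libraries that the comparison did not use. Over 98 hairpins with distinct leading sequences, the mean of the 3 tables of 31 d correlated with the mean of 13 d at Spearman's rho = 0.848 and with the mean of 3 d at 0.146, on the hairpins' scale. The 13 d tables correlated with each other at 0.795 to 0.868 and the 3 d tables at 0.230. These are descriptions across hairpins, which share libraries and, in clusters, transcripts. miR-15b had -1.17, -1.33 and -1.63 in the 31 d tables and miR-25 had -2.09, -2.37 and -2.40, while miR-222 had 1.94, 2.44 and 2.94 and miR-877 had 4.60, 4.24 and 5.41.

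**Figure D4:**
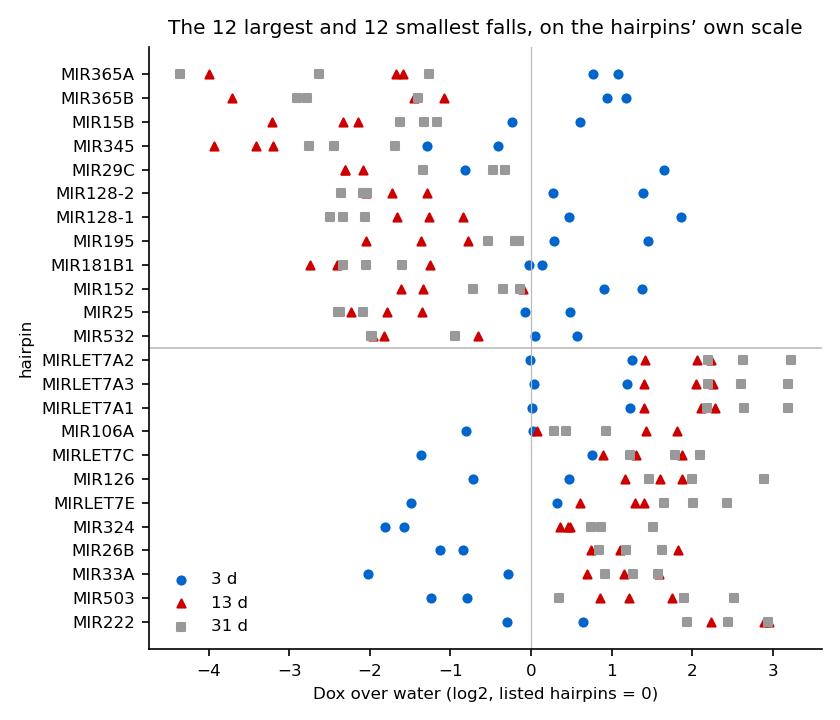
Log2 Dox over water relative to the listed hairpins (x axis) for the 12 hairpins cut by Drosha with the lowest difference (above the line) and the 12 with the highest (below it), 1 point per table after 3 d, 13 d and 31 d. The hairpins were chosen by the 13 d and 3 d tables, so those points are a description; the 31 d points, such as -2.09 to -2.40 for miR-25, were not used to choose them.

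Hairpins cut from 1 primary transcript start from the same RNA, and the centring cancels in the gap between them. Where a mature sequence has a copy on another transcript, as for miR-16, miR-365, miR-181a and let-7a, its reads can come from either copy. Such gaps can mix transcripts. In 24 clusters of hairpins from 1 transcript, the member with the lowest difference was set against the one with the highest. Since the pair was picked by these values, the gaps at 3 and 13 d are a description. Setting 31 d gaps against 3 d gaps is a description too, because the 3 d gaps took part in the choice. The gap exceeded 1 log2 unit in 15 clusters. In 12 of the 15 all 13 d gaps lay below both 3 d gaps, and in 12 of the 15 all 31 d gaps did. miR-15b minus miR-16-2 was 0.59 and -0.51 after 3 d and -2.62, -4.44 and -3.07 after 13 d, and -1.96, -2.91 and -2.88 after 31 d. miR-18a minus miR-17 was 0.53 and -0.25 after 3 d, -2.25, -3.16 and -2.32 after 13 d and -2.71, -3.18 and -3.41 after 31 d. In both pairs every later table lay below both 3 d tables.

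miR-365a minus miR-193b was 1.76 and 1.92 after 3 d, -0.45, -0.50 and -2.51 after 13 d and -1.06, -1.96 and -0.04 after 31 d. miR-425 minus miR-191 was -0.22 and -0.72 after 3 d, -2.07, -3.13 and -1.50 after 13 d and -1.13, -2.40 and -1.81 after 31 d. miR-221 minus miR-222 was -0.25 and 0.39 after 3 d, -0.77, -1.52 and -1.91 after 13 d and -0.89, -0.40 and -0.75 after 31 d, so that the 31 d gap was smaller. miR-15a minus miR-16-1 gave -0.02 and -0.17 after 3 d, and -1.34, -1.38 and -1.19 after 13 d. In both twin clusters, then, the miR-15 member was the lower one after 13 d. The differences of miR-30e and miR-30c-1 had a gap of -0.07 and those of miR-182 and miR-96 one of -0.08. miR-30e minus miR-30c-1 was 0.32 and -0.30 after 3 d, and -0.04, 0.24 and -0.37 after 13 d, which overlap, but its 31 d gaps of -0.53, -1.22 and -1.25 lay below both 3 d gaps. miR-182 minus miR-96 overlapped between 3 and 31 d (0.39, 1.42 and 1.04 after 31 d).

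**Figure D5:**
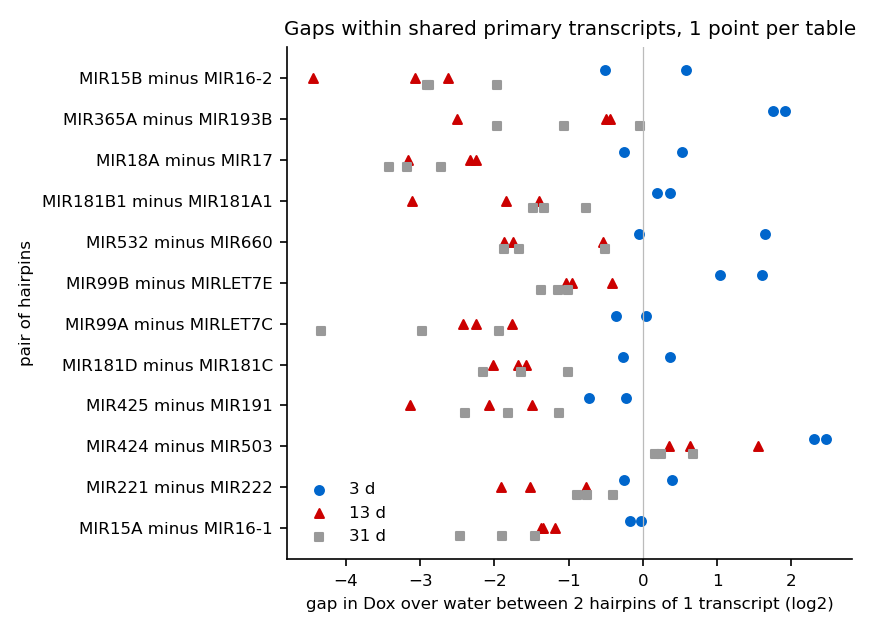
Gap in log2 Dox over water between the 2 named hairpins of 1 primary transcript (x axis) for the 12 clusters with the largest change, with 1 point per table. After 3 d the gap of MIR15B and MIR16-2 is 0.59 and -0.51, and after 13 d it is -4.44 to -2.62.

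Hairpins with the same seed differed in how far they fell. Among 18 seeds carried by more than 1 distinct mature strand, the range was largest for AGCAGCA, from -5.42 (miR-15b) to -2.01 (miR-16) with miR-15a and miR-497 between. For AUUGCAC it ran from -4.68 (miR-25) to -2.77 (miR-92b), and for CAGUGCA from -4.83 (miR-152) to -2.23 (miR-148b). The 9 mature strands with the let-7 seed GAGGUAG ran from -2.91 (miR-98) to -1.0 (let-7e). The smallest range was that of GUGCAAA, with miR-19a and miR-19b at -2.42 and -2.50. Across 97 distinct strands, the difference had a Spearman's rho of -0.204 with the GC percent of the strand, 0.060 with its length and 0.032 with the log2 reads after 31 d, given as descriptions.

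Of the arms tested of these hairpins, 113 (59.2%) were lower in the difference and 0 higher (edgeR; 0 higher also at an unadjusted p under 0.05), beside 12.7% and 1.14% of all loci in that fit. Among 74 hairpins with both arms tested, both arms were lower in 36, the minor arm alone in 6 and the major arm alone in 14, where the major arm is the one with more reads after 31 d. The minor arm is the strand usually discarded. Its log2 ratio minus that of the major arm had a median of -0.13 and 0.02 after 3 d and -0.37, -0.38 and -0.08 after 13 d, which overlap (exact two-sided permutation p = 0.4). In miR-92a-1 the minor arm had a difference of -6.75 and the major arm -3.79. miR-27a showed -5.17 and -2.10, and miR-32 -5.51 and -1.85. miR-15b went the other way, with -2.81 for its minor and -5.79 for its major arm.

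Outside the listed hairpins, 77 loci had a mean of at least 5000 reads, a group chosen after the values were seen. These loci were not annotated and can include microRNA hairpins that were not looked up. Of the 77, 37 were lower in the difference and 9 higher, beside 11.9% and 1.08% of all loci (edgeR). Several of these loci had near-equal counts in every library and can be copies that share reads. For example, chr7:151207650-151207677 (plus) and chr17:17774281-17774306 (plus) had 54647 and 54392 reads with water in 3 d replicate 1. Distinct RNAs among the loci were not counted, so these counts can overstate how many RNAs changed. The most abundant, chr10:69524343-69524367 on the plus strand, had 3297 and 171 reads with water and 466383 and 144087 with Dox after 3 d. After 13 d it had 61854, 737653 and 1051282 with water and 126911, 2096001 and 7747063 with Dox. It was higher with Dox in all 5 tables, and its log2 ratio was 7.17 and 9.57 after 3 d and 1.27, 2.47 and 3.98 after 13 d. The water counts were higher in all 13 d libraries than in both of 3 d, and the Dox counts were higher in 13 d replicates 2 and 3 alone. chr7:5535502-5535527 (minus) had 4343 and 1690 reads with water and 9359 and 4241 with Dox after 3 d, and 23963, 14980 and 12301 with water and 683, 135 and 176 with Dox after 13 d. Its difference was -6.41 (edgeR adjusted p = 0.0012), and relative to hairpins it was -3.73 (edgeR adjusted p = 0.0078).

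Among loci past the threshold whose days did not overlap, the 10 largest falls, named by position and not by gene, lay between -10.59 and -9.02. Several rest on few reads: chr14:101521031-101521054 (plus) had 29 and 30 reads with water and 80 and 98 with Dox after 3 d, and 36, 57 and 80 with water and 0, 0 and 0 with Dox after 13 d. Better counted was chr7:77199556-77199576 (minus), with 18 and 18 reads with water and 3391 and 1136 with Dox after 3 d. After 13 d it had 8830, 17660 and 17601 with water and 1589, 1136 and 2246 with Dox, and its difference was -9.07 ± 0.84 (SE, edgeR adjusted p = 0.0012). chr12:20636666-20636689 (plus) had 942, 1338 and 4638 reads with water and 8, 2 and 18 with Dox after 13 d. The 5 largest rises chosen in the same way were at 0 in both Dox libraries of 3 d, with at most 11 water reads there. The largest, chr17:54968675-54968732 (minus), had 12, 7 and 7 reads with water and 22, 315 and 178 with Dox after 13 d.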

How the data were processed

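The aligner was Bowtie2 2.2.9 and the build hg19 (GRCh37), per the submitters' processing notes. Each deposited table lists alignments with their position, raw read counts and RPKM values of a water and a Dox library, and the ratio of the RPKM values, as the authors computed them. The tables have no header: that the second library is Dox is taken as given, and 0 columns of other samples were left out. Library totals follow exactly from the RPKM scaling. A table lists only alignments with at least 1 water read, so RNAs seen only with Dox are missing. The placing of reads that match several positions is not stated.

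Counts of alignments of 20 to 24 nt were summed over hairpins and, elsewhere, over overlapping alignments. The members and lists were chosen with earlier results of these data known. The hg19 positions of 168 hairpins were entered by hand from miRBase as remembered; a name was kept (141) where the hairpin length matched RefSeq and a leading 5′ end lay within 2 nt of a RefSeq mature start. Of 257 arms, 226 began exactly there. Copies with the same mature sequence share reads.

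Loci with a mean of at least 10 reads were fitted in edgeR 4.0.16 (R 4.3.3, robust quasi-likelihood) with a term for each pair and a Dox effect per day, and with TMM over loci outside the hairpins. Benjamini-Hochberg adjustment ran over all 7291. Ratios per table had 0.5 reads added. Same-numbered water and Dox libraries deviated together: r was 0.656 at 3 d and 0.434 to 0.656 at 13 d, while pairs of unlike number at 13 d had -0.457 to 0.046. At 3 d unlike pairs had -0.656, the same value with its sign turned. With so few libraries per day, the unlike values are not independent of the like ones. On simulated counts of 7291 loci, 0%, 18%, 52% and 76% of 50 differences of log2 size 2, 4, 6 and 8 were recovered, and 0% of unchanged loci were called. The changed loci were drawn at random from all those tested, all others were held flat, and no pair effects were simulated. Far more loci, 946, passed in the data, so these rates need not hold for the hairpins. Named hairpins are those with most reads at 31 d in each list, and the 10 largest falls and 5 largest rises whose days do not overlap; hairpins with the largest values on either scale were added after their values were seen.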

Additional observations from a re-analysis of the deposited data

Results flagged for a closer look

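For 20 hairpins cut by Drosha the Dox effect had opposite signs at the 2 days: higher with Dox at 3 d, lower at 13 d, and past the threshold at both times and in their difference (edgeR quasi-likelihood test). Their log2 differences were -5.42 for miR-15b, -5.20 for miR-128-2, -5.10 for miR-128-1, -4.96 for miR-195, -4.83 for miR-152, -4.68 for miR-25, -4.47 for miR-532 and -4.25 for miR-30c-2. Next came -4.21 for miR-423, -4.21 for miR-30e, -4.15 for miR-340, -4.14 for miR-30c-1, -4.08 for miR-130b, -4.05 for miR-106b and -3.95 for miR-339. The smallest were -3.93 for miR-744, -3.74 for miR-9-1, -3.71 for miR-1307, -3.57 for miR-378a and -3.12 for miR-140. The 3 d effects rest on water libraries in which hairpins held 67.9% and 46.3% of the 20 to 24 nt reads. Relative to hairpins, 0 of the 117 hairpins cut by Drosha passed at 3 d (edgeR; 1 lower and 4 higher at an unadjusted p under 0.05).

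The chromosome 5 site of the induced hairpin was also read in the 31 d libraries, which are not part of the test of 13 against 3 d. In the 3 tables, Dox over water on the plus strand was 130, 483 and 1011. The minus strand gave 57.2, 68.4 and 101.17.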

How the results depend on the processing

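The 5 tables, and 3 residual degrees of freedom, limit all counts. Over all loci the differences past the threshold numbered 946, the 13 d effects 1356 and the 3 d effects 480, with late falls at 6.9% of loci. Without the replicate block that pairs the libraries these were 54, 99 and 9, with 11 late falls. With no filter on low counts they were 379, 435, 245 and 157 late falls, and with alignments of 18 nt or longer the first 3 were 1906, 2099 and 2032 while the difference of the hairpin medians moved from -2.90 to -3.78. Library totals in place of centring gave 613 differences and 18 effects at 3 d. DESeq2 gave 1614, 2079 and 2058. The 31 d libraries in the fit gave 1489 differences, 901 effects at 3 d and 839 late falls. A minimum of 50 reads gave 758 effects at 13 d, and limma on ratios gave 254 at 3 d.

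3 alternatives were added after seeing the data. Centring on hairpins not cut by Drosha gave 1608, 5654, 2666 and 1516 in the same order. Centring on the listed hairpins gave 2485 effects at 3 d and 41 late falls, and turned the split of the differences from 867 lower and 79 higher to 72 lower and 845 higher. Alignments listed in all 5 tables gave 319 effects at 3 d, with 17.8% of loci lower and 12.7% higher in the difference; DESeq2 gave 814 lower and 800 higher of 7291, and deposited ratios 756 and 542 of 2909 loci. Leaving out 1 table at a time gave 255 to 746 differences, 19 to 2405 effects at 13 d, 72 to 912 at 3 d, 11 to 463 late falls and 52 to 90 lower arms. Over the single named hairpins, the sign of the difference turned in 31 values. Centred on the listed hairpins it turned for miR-20a (0.37), let-7a (1.31), miR-16-2 (0.67), miR-27a (0.30), miR-221 (1.05), miR-182 (0.55), miR-103a-1 (0.65), miR-26a-2 (0.74), miR-148a (0.037), miR-191 (0.38), miR-26b (2.21), miR-222 (2.52) and miR-126 (1.67). On alignments listed in all 5 tables it turned for let-7a (0.24), miR-26b (1.14), miR-222 (1.46) and miR-126 (0.60), with deposited ratios for let-7a (0.061), miR-222 (1.18) and miR-126 (0.46), with DESeq2 for miR-26b (0.80), miR-222 (1.12) and miR-126 (0.26) and with a minimum of 50 reads for miR-26b (0.35) and miR-222 (0.67). The sign of miR-484 turned with alignments of 18 nt or longer (-0.39) and centred on hairpins not cut by Drosha (-0.61). Leaving out 1 table at a time, miR-26b ranged over -0.93 to 0.21 and turned without 3 d replicate 3, and miR-222 ranged over -0.51 to 0.26 and turned without either 3 d pair or 13 d replicate 1. The cause of these changes was not tested. Of the values of single named hairpins under the alternatives, 409 kept sign and side of the threshold, 96 kept the sign but fell short of it and 40 newly passed.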
